A study of Mus musculus with 4 samples.

Results

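The genes described here are Myc, its partner Max and a set of genes whose products build ribosomes, 36 in all, listed by name. Each was read from the brightest array feature that carried its symbol. The array annotation gave a feature to 34 of them, 1 feature each, among 19505 distinct gene symbols and 22206 gene features. Gnl3 and Nop56 were not matched to a feature by symbol or by Entrez identifier and were not analysed here. The samples were CD8+ T cells, the cytotoxic lymphocytes, purified from spleen and lymph nodes of C57/BL6 mice. All cultures were stimulated for 3 days with beads that carry antibodies to CD3 and CD28, with interleukin 2 in the medium. The 2 control cultures were otherwise left untreated, and the 2 treated cultures received 25 µM spermidine, a polyamine. RNA of each culture was hybridised to 1 Clariom S Mouse array, and the comparison asked how expression differs in the presence of spermidine.

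Myc is a transcription factor that binds DNA as a dimer with Max, with a preference for the E-box motif CACGTG. In a T cell stimulated through its receptor, Myc is induced early and drives growth in cell size before division, and genes of ribosome production are among its best known targets. A ribosome begins in the nucleolus, where RNA polymerase I makes a long precursor RNA. Small nucleolar ribonucleoproteins (snoRNPs) guide its chemical modification, and successive sets of assembly factors cut and fold it into the small and the large subunit.

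The promoters below are shown because E-boxes are the sequence through which the Myc and Max proteins contact DNA. RefSeq windows of build GRCm38.p6, from 250 bases before to 50 bases after a gene's start, were found for 29 of the 36 genes. No window was matched for Myc, Npm1, Fbl, Rrs1, Rrp12, Bop1 or Tcof1. CACGTG, which reads the same on both strands, stood in the windows of 7 of these 29 genes (24.1%): Max, Mybbp1a, Nop2, Pes1, Rrn3, Utp20 and Wdr43. Of all 27025 genes with a window, 2187 (8.09%) held it, and of all 32851 windows, 2349 (7.15%). The 4 of these genes with the largest test statistic between spermidine and control are printed 5′ to 3′, with CACGTG in capitals.
Max (chr12:76962199-76962498, minus strand): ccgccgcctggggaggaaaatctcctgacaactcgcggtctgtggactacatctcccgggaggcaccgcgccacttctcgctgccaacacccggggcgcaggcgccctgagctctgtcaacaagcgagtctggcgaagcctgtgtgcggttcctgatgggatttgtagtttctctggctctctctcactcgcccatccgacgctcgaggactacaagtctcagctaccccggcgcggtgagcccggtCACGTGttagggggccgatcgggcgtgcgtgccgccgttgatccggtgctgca
Utp20 (chr10:88826765-88827064, minus strand): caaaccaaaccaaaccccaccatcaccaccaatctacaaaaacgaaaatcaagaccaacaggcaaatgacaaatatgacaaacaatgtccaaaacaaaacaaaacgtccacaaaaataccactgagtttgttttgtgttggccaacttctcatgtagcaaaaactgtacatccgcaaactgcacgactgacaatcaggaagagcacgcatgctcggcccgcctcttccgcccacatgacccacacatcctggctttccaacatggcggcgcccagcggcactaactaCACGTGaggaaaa
Wdr43 (chr17:71615965-71616264, plus strand): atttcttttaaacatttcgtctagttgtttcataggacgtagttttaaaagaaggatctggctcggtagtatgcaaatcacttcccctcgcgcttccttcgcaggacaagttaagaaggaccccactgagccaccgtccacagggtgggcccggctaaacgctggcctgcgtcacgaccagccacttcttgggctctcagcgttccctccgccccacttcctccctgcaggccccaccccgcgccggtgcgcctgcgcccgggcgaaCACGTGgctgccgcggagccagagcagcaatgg
Nop2 (chr6:125131633-125131932, plus strand): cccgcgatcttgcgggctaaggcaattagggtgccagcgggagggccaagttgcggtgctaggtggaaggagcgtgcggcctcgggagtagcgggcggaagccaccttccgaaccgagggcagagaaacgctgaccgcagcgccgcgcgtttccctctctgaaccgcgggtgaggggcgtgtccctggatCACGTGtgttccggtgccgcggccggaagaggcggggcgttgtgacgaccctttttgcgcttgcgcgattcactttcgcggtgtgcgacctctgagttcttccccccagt
The first base of the motif lay 3 bases before the start of Max and 60 bases before that of Nop2. In Wdr43 and Utp20 it was base 18 and base 38 counted from the start. A match is a run of letters and no evidence of binding. The 7 genes with the motif had a median log2 difference (spermidine minus control) of 0.012, with 4 above 0 and 3 below, and ranged from -0.31 to 0.49. The 20 measured genes whose window lacked it had a median of -0.015, with 10 above 0 and 10 below, and ranged from -0.54 to 0.44.

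The arrays held strong T cell signals: Cd8a and Cd8b1, which encode the chains of the CD8 co-receptor, lay between 16.57 and 17.19 (log2) on every array. In both genes each spermidine array was below both control arrays, as in 18.4% of all features. The differences were -0.093 (Cd8a) and -0.34 (Cd8b1), and neither passed the limma test described below (adjusted p = 0.957 and 0.808). The means of 5 general T cell markers were 13.82 and 13.95 on the control arrays and 13.59 and 13.96 on the spermidine arrays, and overlapped. Median gene signals of the 4 arrays ran from 5.13 to 5.25, and correlations across features between arrays from 0.989 to 0.994. The antigenomic features, whose probes match no mouse sequence, had a mean 95th percentile of 6.35. All 34 genes exceeded it on every array, the lowest value being 7.61. Of 5 measured macrophage and monocyte markers, 0 exceeded it on every array. Of 5 measured B cell markers, 2 did (Cd79a and Cd79b). The mean over the 5 B cell markers was 5.49 and 5.40 on the control arrays and 6.15 and 5.75 on the spermidine arrays. All 5 differences were above 0, from 0.091 to 0.94. Cd79a differed by 0.81 and Cd79b by 0.35, each without overlap between groups, beside 18.3% of all features with spermidine higher and apart. Neither passed the same limma test (adjusted p = 0.637 and 0.814). The 3 platelet markers averaged 4.73 and 5.23 against 5.38 and 6.06, mostly through Ppbp (difference 1.78), which was below the background percentile on every array. The means of 3 NK cell markers overlapped between the groups, and those of 2 CD4 T cell markers were 6.71 and 6.86 against 6.95 and 7.32. The latter rise came from Zbtb7b (difference 0.76), which was below the background percentile on control replicate 1 (6.32). Cd4 itself differed by -0.062, and its arrays overlapped. The part of other cells in the values below was not tested. The sample titles call the replicates biological. Nothing in the labels says whether they came from separate mice, so p-values measure only the spread between these samples. In such bulk samples, a change in the make-up of the cells and a change in RNA per cell cannot be told apart.

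With spermidine, the mean signals of Myc and the ribosome biogenesis genes lay within 1.5-fold of the control means. Of the 34 genes, 0 had an adjusted p below 0.05 by limma with Benjamini-Hochberg adjustment over all features, as did 0 of 22206 features (0.0%). At an unadjusted p under 0.05 there were again 0 of the 34 genes, beside 7.02% of all features (3.38% higher and 3.64% lower with spermidine). The differences ran from -0.54 (Noc4l) to 0.49 (Utp20) on the log2 scale. The median difference was 0.0075, beside -0.0067 over all features. In 6 genes the control arrays were both exceeded by each spermidine array (17.6%, against 18.3% of all features). In 5 genes each spermidine array was the lower (14.7%, against 18.4%). These shares were close to those over all features. The 95% intervals, not adjusted for the number of genes, had a median half-width of 0.56. In 32 of 34 genes the interval lay within a 2-fold change in either direction, and the exceptions were Noc4l and Utp20.

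**Figure D1:**
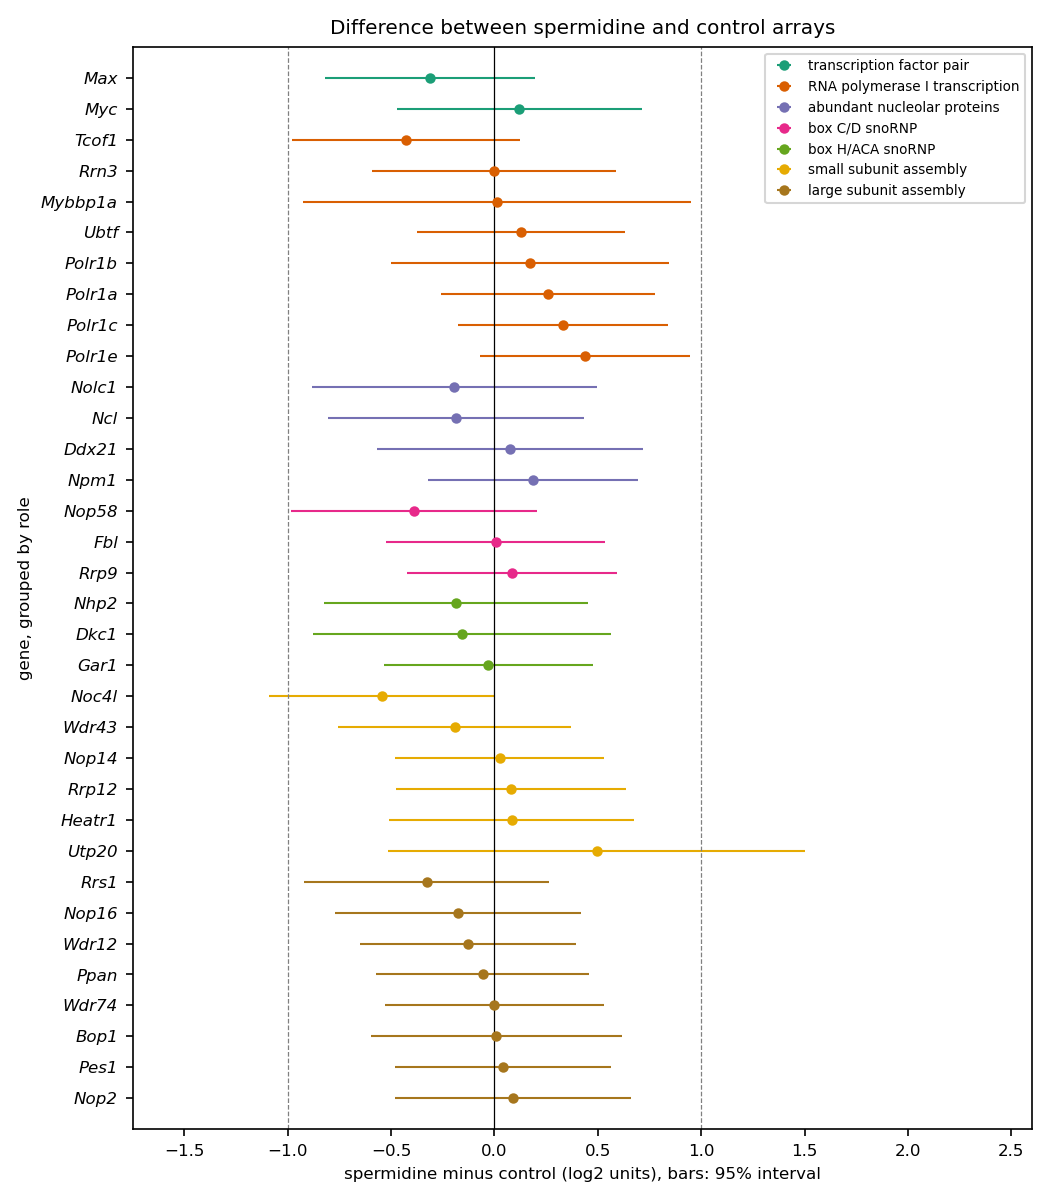
Difference between the mean log2 signals of 2 spermidine and 2 control arrays (x axis, log2 units) for each of the 34 measured genes (y axis), coloured by role. Bars are 95% intervals from limma, and dashed lines mark a 2-fold change. All 34 intervals include 0, and differences run from -0.54 to 0.49.

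Myc itself had log2 signals of 16.85 and 17.14 on the control arrays and 16.89 and 17.35 on the spermidine arrays. The groups overlapped, and replicate 2 was the higher array in each group. The means were 17.00 ± 0.20 (SD, n = 2) without and 17.12 ± 0.33 (SD, n = 2) with spermidine, a difference of 0.12 ± 0.26 (SE; 95% interval -0.47 to 0.71; adjusted p = 0.953). Myc lay above 16 on every array, as did 188 of the 22206 features. The deposited scale ends between 19.74 and 19.93, and differences of very bright features may be compressed. Without control replicate 1 its difference was -0.022, and without spermidine replicate 2 it was -0.11. Max, the obligate dimer partner whose promoter is printed above, stood at 12.19 and 12.10 without and at 11.78 and 11.89 with spermidine. Both spermidine arrays were below both control arrays. The difference of -0.31 ± 0.22 (SE; 95% interval -0.82 to 0.20) was 2.76 times the wider replicate gap and did not pass the test (adjusted p = 0.815).

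The 8 genes of RNA polymerase I transcription contained 4 of the 6 genes whose spermidine arrays all lay higher, among them 3 polymerase subunits. That is 4 of 8, beside 18.3% of all features, and the role was singled out with these values in view. Polr1e, a subunit involved in initiation, gave 10.75 and 10.66 on the control arrays and 11.12 and 11.17 on the spermidine arrays. Its difference was 0.44 ± 0.22 (SE; 95% interval -0.068 to 0.94; adjusted p = 0.740), 4.70 times the larger gap between replicates. Both groups were tight and did not overlap. Polr1c, a subunit shared with RNA polymerase III, had 9.96 and 10.04 against 10.28 and 10.38, a difference of 0.33 ± 0.22 (SE; adjusted p = 0.804). Polr1a, the largest catalytic subunit, had 10.81 on each control array and 10.97 and 11.18 with spermidine, a difference of 0.26 ± 0.22 (SE; adjusted p = 0.846). In both subunits the spermidine arrays were the higher pair. Ubtf, which binds the promoter of the ribosomal RNA genes, was nearly level within each group and differed by 0.13 ± 0.22 (SE). The second largest subunit, Polr1b, ranged from 8.98 to 9.75 within the control arrays alone, and its difference of 0.17 ± 0.29 (SE) lay inside that gap. Rrn3, the initiation factor that couples the polymerase to growth signals, differed by -0.0011 ± 0.26 (SE).

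Tcof1, the nucleolar protein treacle that supports transcription of ribosomal RNA genes, had a difference of the opposite sign. Its signals were 10.10 and 9.80 on the control arrays and 9.65 and 9.40 on the spermidine arrays, without overlap. The difference was -0.43 ± 0.24 (SE; 95% interval -0.98 to 0.12; adjusted p = 0.759). Mybbp1a, a nucleolar protein that binds the Myb factor and acts on ribosomal RNA synthesis, gave 10.66 and 9.70 without and 10.68 and 9.71 with spermidine. Its group difference was 0.012 ± 0.41 (SE), while the arrays of a group differed by 0.96 and 0.98. Over the 8 genes of this role, 6 differences were above 0 and 2 below, with a median of 0.15. Without control replicate 2 these became 4 and 4, with a median of -0.049. A list of other genes of this polymerase had 10 of 14 genes matched to a feature. Of these, 3 differences were above 0 and 7 below, with a median of -0.15. The list's median was -0.033 without control replicate 1 and -0.31 without control replicate 2. Polr1f, Polr1g, Polr1h and Taf1d were not matched, and Taf1c lay below the background percentile on all 4 arrays. In that list Polr2e and Polr2h, subunits shared by the 3 nuclear polymerases, stood at 0.52 ± 0.22 and -0.44 ± 0.23 (SE), and Polr2l, also shared, at -0.56 ± 0.28 (SE). None of these values passed the test over all features (adjusted p of 0.706 or more).

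**Figure D2:**
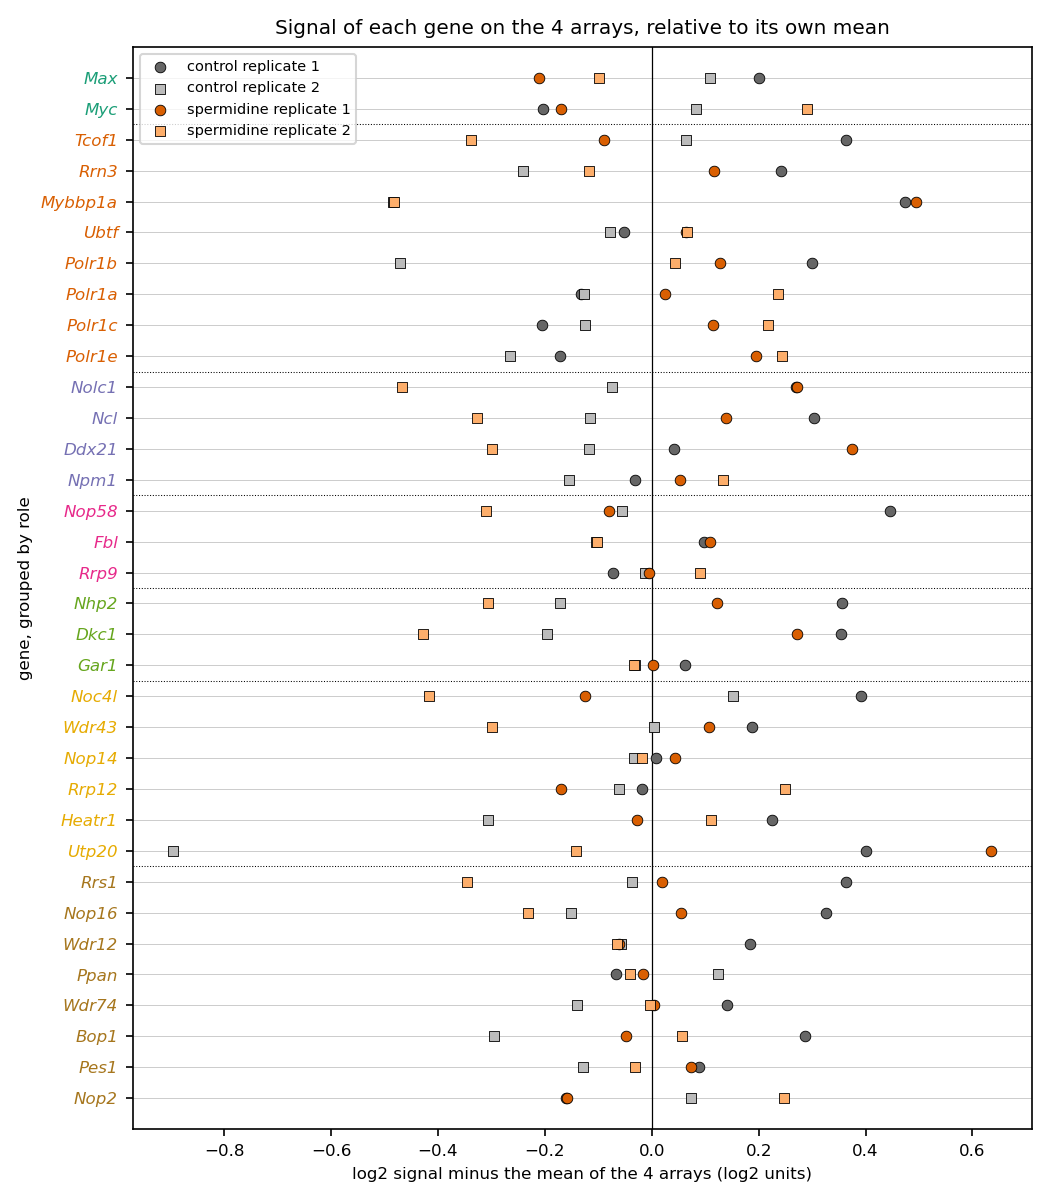
Log2 signal of each gene on each of the 4 arrays minus the gene's own mean over the 4 (x axis, log2 units), with genes grouped by role (y axis). Grey points are control arrays and orange points spermidine arrays, with circles for replicate 1 and squares for replicate 2. Polr1e, Polr1c, Polr1a and Ubtf have both orange points to the right of both grey ones, whereas in Mybbp1a the circles and the squares stand apart by 0.96 and 0.98.

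The abundant nucleolar proteins showed no shared direction. Npm1, a chaperone of ribosome assembly, had 17.40 and 17.28 on the control arrays and 17.49 and 17.57 with spermidine. The groups did not overlap, the difference was 0.19 ± 0.22 (SE; adjusted p = 0.903), and the signal lay above 16 like that of Myc. Near-identical processed copies of Npm1 exist in the mouse genome, so its signal is uncertain. Ncl, which encodes nucleolin, gave 15.78 and 15.36 against 15.61 and 15.15. These arrays overlapped, with replicate 1 the higher in each group, and the difference was -0.19 ± 0.27 (SE; adjusted p = 0.921). The difference of Ncl was 0.022 when control replicate 1 was left out and 0.046 when spermidine replicate 2 was. The snoRNP chaperone Nolc1 (-0.19 ± 0.30, SE) and the RNA helicase Ddx21 (0.075 ± 0.28, SE) also overlapped between groups.

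Among the proteins of box C/D snoRNPs, which direct methylation of ribosomal RNA, the core subunit Nop58 had the largest difference. Its signals were 13.59 and 13.09 on the control arrays and 13.07 and 12.83 on the spermidine arrays. The groups were separated by only the small step between 13.09 and 13.07. The difference of -0.39 ± 0.26 (SE; 95% interval -0.99 to 0.21; adjusted p = 0.804) was smaller than the gap of 0.50 between the control arrays. The methyltransferase fibrillarin, Fbl, gave 14.54 and 14.34 without and 14.55 and 14.34 with spermidine, a difference of 0.0064 ± 0.23 (SE). Rrp9, the protein specific to the U3 snoRNP, differed by 0.085 ± 0.22 (SE) with both spermidine arrays above the control arrays. In the box H/ACA snoRNPs, which convert uridine to pseudouridine, all 3 measured proteins had differences below 0. The pseudouridine synthase Dkc1 stood at -0.16 ± 0.31, Nhp2 at -0.18 ± 0.28 and Gar1 at -0.030 ± 0.22 (SE). Their arrays overlapped, and without control replicate 1 all 3 differences were above 0 (median 0.079). Without spermidine replicate 2, 2 of 3 were above 0, and with a further quantile normalization or cyclic loess 1 of 3 was (Gar1). Of 11 measured other genes of snoRNP assembly, 8 differences were below 0 and 3 above, with a median of -0.34 (-0.18 without control replicate 1). Its genes with the largest statistics were the assembly factor Nufip1 (-0.52 ± 0.22, SE), the chaperone component Rpap3 (0.49 ± 0.22, SE) and Znhit3 (-0.64 ± 0.30, SE). Znhit3 lay below the background percentile on 3 of the 4 arrays. None of the 11 passed the test (adjusted p of 0.708 or more).

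The small subunit assembly factors held the lowest and the highest difference of all 34 genes. Noc4l, a component of the processome that trims the small subunit precursor, had 10.47 and 10.23 on the control arrays and 9.96 and 9.67 on the spermidine arrays. Both spermidine arrays were below both control arrays. The signal was 1.46-fold lower with spermidine, a difference of -0.54 ± 0.24 (SE; 95% interval -1.09 to 0.0046; unadjusted p = 0.0515; adjusted p = 0.717). Utp20, a large scaffold of the same particle, had 9.22 and 7.93 without and 9.46 and 8.68 with spermidine. Here replicate 1 was far above replicate 2 in both groups and the groups overlapped. The difference of 0.49 ± 0.44 (SE; adjusted p = 0.850) was 0.381 times the gap of 1.30 between the control arrays, and it was -0.15 without control replicate 2.

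Wdr43, a further processome component, gave 14.07 and 13.89 against 13.99 and 13.58, a difference of -0.19 ± 0.24 (SE; adjusted p = 0.909) with overlapping groups. Heatr1 (0.083 ± 0.26), Rrp12 (0.080 ± 0.24) and Nop14 (0.025 ± 0.22, SE) also overlapped. Of 44 other small subunit assembly genes, all measured, 21 differences were above 0 and 23 below, with a median of -0.033. The split was 29 and 15 (median 0.077) without control replicate 1 and 9 and 35 (median -0.19) without control replicate 2. It was 15 and 29 (median -0.12) without spermidine replicate 1 and 25 and 19 (median 0.065) without spermidine replicate 2. Quantile normalization and cyclic loess each gave 25 and 19 (median 0.016). The genes with the largest statistics were Krr1 (-0.76 ± 0.25, SE), Mphosph10 (-0.49 ± 0.23, SE) and the acetyltransferase Nat10 (0.40 ± 0.24, SE), with adjusted p of 0.637 or more.

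In large subunit assembly the differences were smaller, from -0.33 to 0.088 over 8 genes. Rrs1, which helps to bring the 5S ribosomal RNA into the subunit, had 10.51 and 10.11 on the control arrays and 10.17 and 9.80 on the spermidine arrays. The groups overlapped narrowly, and the difference was -0.33 ± 0.26 (SE; 95% interval -0.92 to 0.26; adjusted p = 0.838). Pes1, Bop1 and Wdr12 form the PeBoW complex, and their differences were 0.042 ± 0.23, 0.0086 ± 0.26 and -0.13 ± 0.23 (SE). Wdr12 was the member of that complex whose spermidine arrays (11.55 on each) lay below both control arrays (11.80 and 11.56), the lower of which they nearly touched. Wdr74 stood at 0.00020 ± 0.23, the RNA methyltransferase Nop2 at 0.088 ± 0.25, Nop16 at -0.18 ± 0.26 and Ppan at -0.056 ± 0.22 (SE). All 4 overlapped between groups.

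Of 48 other large subunit genes 46 were measured, with 16 differences above 0, 30 below and a median of -0.083. The median turned without control replicate 1 (25 above, 21 below, 0.022) and without spermidine replicate 2 (28 above, 18 below, 0.042), and was -0.18 without control replicate 2. Leading values were those of the helicases Ddx54 (0.65 ± 0.22, SE) and Ddx51 (-0.75 ± 0.27, SE), and of Mdn1, the giant ATPase that strips assembly factors from the subunit (0.47 ± 0.23, SE). Ddx51 and Rrp1b fell below the background percentile on 1 array each, and Nle1 (0.33) and Ddx55 (0.057) on all 4. The list for the trimming of ribosomal RNA ends by the exosome, a nuclease complex, held 14 measured genes, not all of them subunits of the complex. Of these, 3 differences were above 0 and 11 below, with a median of -0.21. Exosc4, the highest of the 3 (0.25), lay below the background percentile on all 4 arrays. With the filter on dim features, 2 were above 0 and 11 below, with a median of -0.22. In the exosome list Mphosph6 stood at -0.71 ± 0.25, Exosc3 at -0.59 ± 0.23 and the nuclease Dis3 at -0.40 ± 0.28 (SE). The median of this list was -0.050 without spermidine replicate 2, -0.087 without control replicate 1 and -0.34 without spermidine replicate 1.

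Genes of the wider Myc network included some with differences beyond the range of the 34 genes. Among its 15 measured genes, Cip2a, an inhibitor of phosphatase 2A that stabilises Myc protein, gave 10.10 and 9.73 on the control arrays and 8.98 and 8.38 on the spermidine arrays. Mxd1, which pairs with Max and opposes Myc, gave 9.06 and 9.43 against 9.96 and 10.07. In both genes the groups did not overlap, and the differences were -1.23 ± 0.28 (SE) and 0.77 ± 0.24 (SE), each with an adjusted p = 0.637. Mlxip, a related factor that responds to sugar phosphates, stood at 0.45 ± 0.23 (SE; adjusted p = 0.741). The network median was 0.097, with 10 genes above 0 and 5 below, and it was -0.021 without spermidine replicate 1 and 0.31 without control replicate 1. Mlxipl, Mxd3 and Mycl lay below the background percentile on all 4 arrays, and Mycn, whose difference was the median, on 2. Among these, Mxd3 alone had a difference below 0. With the filter on dim features, 13 network genes remained, with 8 above 0, 5 below and a median of 0.081. Of 21 genes outside the ribosome that are known to respond to Myc, 7 were above 0 and 14 below, with a median of -0.069. Without control replicate 1 this became 10 and 11 (median -0.0096), without control replicate 2 it became 3 and 18 (median -0.19), and without spermidine replicate 1 it became 5 and 16 (median -0.18). The median was -0.042 without spermidine replicate 2 and -0.013 with cyclic loess. The amino acid transporter Slc7a5 stood at -0.83 ± 0.30, the mitochondrial DNA factor Tfam at -0.51 ± 0.24 and the nuclear transport gene Ranbp1 at -0.65 ± 0.37 (SE). Over the 161 genes of all these other lists, 0 passed the adjusted threshold, and at an unadjusted p under 0.05 there were 3 higher and 7 lower, 6.21% in all, close to the 7.02% of all features.

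**Figure D3:**
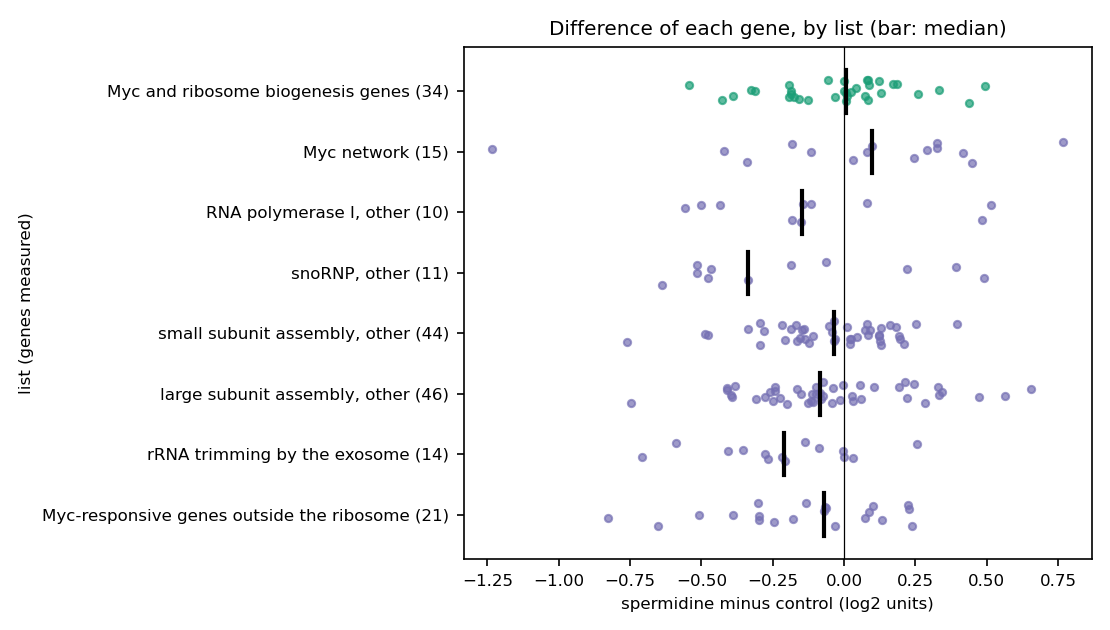
Difference of each gene between spermidine and control arrays (x axis, log2 units) for the 34 Myc and ribosome biogenesis genes and for 7 lists of other pathway genes (y axis, number measured in brackets). Each point is 1 gene with random vertical jitter, and the bar is the list's median. Medians run from -0.34 (other snoRNP genes) to 0.097 (Myc network), and Cip2a at -1.23 is the lowest point.

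The gap between replicates was larger than the group difference for most of the 34 genes. The difference exceeded the wider replicate gap, the larger of the control and the spermidine gap, in 8 genes (23.5%, against 24.5% of all features): Noc4l, Polr1e, Tcof1, Polr1c, Max, Polr1a, Npm1 and Ubtf. The median gap between control arrays was 0.24, between spermidine arrays 0.22, and the median size of a group difference 0.14. Control replicate 1 was above control replicate 2 in 28 of 34 genes (82.4%, against 49.1% of all features). Spermidine replicate 1 was above spermidine replicate 2 in 22 of 34 (64.7%, against 52.5%), and both held in 21 genes (61.8%, against 30.0%). Over the other pathway lists both held in 93 of 161 genes (57.8%), but in only 3 of the 15 Myc network genes (20.0%). The median deviation of the 34 genes from their own means was 0.19 on control replicate 1, -0.11 on control replicate 2, 0.048 on spermidine replicate 1 and -0.053 on spermidine replicate 2. The split into 19 differences above 0 and 15 below therefore depended on the arrays used. Leaving out control replicate 1 gave 23 and 11, and leaving out control replicate 2 gave 11 and 23. Leaving out spermidine replicate 1 gave 13 and 21, and leaving out spermidine replicate 2 gave 21 and 13. Centring each array on its median gave 15 and 19.

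**Figure D4:**
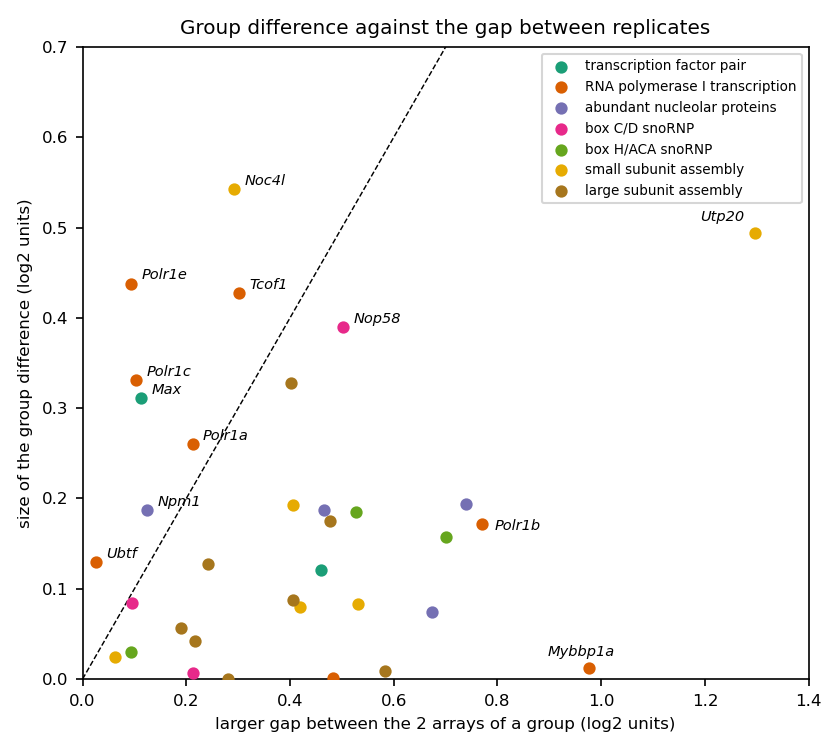
Size of the group difference (y axis, log2 units) against the larger of the gaps between the 2 arrays of a group (x axis, log2 units), 1 point per gene, coloured by role. The dashed line marks equality: 8 genes lie above it, and Utp20 and Mybbp1a have the widest gaps, at 1.30 and 0.98.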

How the data were processed

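The 4 arrays were grouped by the sample titles. The authors deposited 1 log2 signal per feature and array; the submitters' processing notes name RMA, run in Affymetrix Expression Console, without versions. RMA subtracts background, equalises array distributions and summarises probes, which compresses dim features. The log2 base was inferred from the values. A genome build for the annotation was not given in the sources used here. Of the features, 6640 controls were left out and 22206 gene features tested; 19572 had 1 gene symbol, 0 several and 2634 none. All 19572 were found by Entrez identifier in RefSeq GRCm38.p6 and 0 changed.

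Groups were compared in R 4.3.3 with limma 3.58.1 (lmFit, eBayes, two-sided, 5.96 prior and 2 residual degrees of freedom), with Benjamini-Hochberg adjustment over all features at 0.05. Exact permutation of 4 arrays gives no p under 0.333 and was not used. The procedure was tested on simulated data, and the outcome is not given here. No conclusion is drawn from that test about differences as small as those of Myc and the ribosome genes. The same holds for replicate gaps that are shared between the groups. The number of arrays limits the precision.

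The 36 genes, the pathway lists, the roles and the markers were chosen with earlier results of these data known. Every measured gene is named. Array values are printed for Myc, Max and the 12 genes with the largest statistics, and other array values were chosen after they were seen. From each other list the 3 genes with the largest statistics are named, with genes below background and unmatched polymerase genes in addition. Cd8a, Cd8b1, Cd79a and Cd79b are markers fixed by name, and the other markers were named after their values were seen. Of the other lists, 9 genes were not matched. Alternatives were a trended or robust prior, array weights, quantile, median or cyclic loess normalization, a filter on dim features, a single feature for each symbol, a replicate block, an unadjusted threshold, and leaving out each array. None of the 34 genes had a further feature, so the alternative of their next brightest feature was not run.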

Additional observations from a re-analysis of the deposited data

Results flagged for a closer look

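Control features outside the comparison were higher on both spermidine arrays than on both control arrays in 3 classes; this was not tested. The 8 hybridisation spike-ins, transcripts of bacteria and a phage added to the samples, had mean log2 signals of 7.67 and 7.58 on the control arrays and 7.98 and 8.15 on the spermidine arrays, a difference of 0.439. The 63 ERCC features differed by 0.0666 and the 23 antigenomic background features by 0.0272. The ERCC means ran from 4.08 to 4.17, below the background percentile of 6.35. The other and larger classes overlapped between the groups. They were 5222 intronic negative controls (difference 0.011) and 1324 exonic positive controls (-0.043). The part of the control features in the values of Myc and the ribosome genes was not tested. No group had the 4 arrays needed to look for an outlying array.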

How the results depend on the processing

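No alternative called any of the 34 genes, and the smallest adjusted p of a gene was that of Noc4l under every alternative with 4 arrays (0.42 to 0.767). Over all features 1 was called, Hmox1, in place of 0, with the intensity trend, median centring, cyclic loess, the filter on dim features and the replicate block; at an unadjusted p 1558 were. The labels do not say that a replicate number marks a shared batch or animal. The gaps between replicates 1 and 2 in the 2 groups correlated across features (Pearson r = 0.21 over all features, 0.681 over the 34 genes; genes are not independent replicates), a hint from the data only. With the block 1 feature was called in place of 0, and 0 of the 34 genes.

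The median difference of the 34 genes ran from -0.17 to 0.091 without 1 array. The genes with arrays apart numbered 9 to 16 higher and 6 to 18 lower with 3 arrays. All features give 31.1% to 37.3% in each direction, because fewer arrays must be apart. Without control replicate 1, 16 of 34 genes were higher (31.1% of all features) and 6 lower (33.9%). Without control replicate 2, 9 were higher (35.5%) and 18 lower (34.4%). Without spermidine replicate 1, 9 were higher (34.8%) and 14 lower (37.3%), and without spermidine replicate 2, 12 (33.7%) and 6 (32.8%). The balance turned with the array left out. Median centring left 3 in place of 5 apart and lower. With all arrays 6 genes changed sign: Rrn3 and Gar1 with quantile normalization (0.049 and 0.019) and cyclic loess (0.051 and 0.022), and Mybbp1a, Fbl, Bop1 and Wdr74 with median centring (-0.0021, -0.0078, -0.0056 and -0.014). Without 1 array, 22 genes changed sign in at least 1 case: Myc from -0.11 to 0.35, Polr1b from -0.21 to 0.56, Rrn3 from -0.24 to 0.24, Mybbp1a from -0.48 to 0.50, Ncl from -0.42 to 0.046, Nolc1 from -0.56 to 0.18, Ddx21 from -0.26 to 0.41, Fbl from -0.10 to 0.11, Dkc1 from -0.51 to 0.19, Gar1 from -0.078 to 0.017, Nhp2 from -0.45 to 0.079, Utp20 from -0.15 to 1.14, Heatr1 from -0.18 to 0.35, Wdr43 from -0.40 to 0.010, Nop14 from -0.0066 to 0.056, Rrp12 from -0.13 to 0.29, Bop1 from -0.28 to 0.30, Pes1 from -0.067 to 0.15, Wdr74 from -0.14 to 0.14, Nop2 from -0.12 to 0.29, Nop16 from -0.41 to 0.063 and Ppan from -0.15 to 0.039. The cause was not tested. These fits assume that the lone array of a group varies like the other group's. The remaining 12 genes kept their sign in every alternative. Of these, 6 moved by over 1.5 times toward 0 without 1 array, with ranges of -0.64 to -0.14 for Nop58, -0.53 to -0.13 for Rrs1, -0.58 to -0.28 for Tcof1, -0.25 to -0.0066 for Wdr12, 0.15 to 0.37 for Polr1a and 0.037 to 0.13 for Rrp9. The number of arrays limits what the adjusted test can call. Among the pathway genes the largest difference, -1.23 for Cip2a, did not pass (adjusted p = 0.637). Whether the number of arrays was the reason was not tested.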
